A study of Mus musculus with 4 samples.

Results

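The Hes and Hey genes were examined in HFSCs (CD34+CD49f+), the hair follicle stem cells sorted from the telogen back skin of *Hes1*eKO mice and their controls. The family was taken as 9 genes, *Hes1*, *Hes2*, *Hes3*, *Hes5*, *Hes6*, *Hes7*, *Hey1*, *Hey2* and *Heyl*. A row of the value table (a transcript cluster, the probes of one transcript unit) was counted as a member where its only gene symbol was one of these, which gave 11 of 41345 clusters. *Hes5* and *Hes7* had 2 clusters each and the other 7 genes had 1, and the brighter cluster by the mean of the 4 arrays was taken as the main cluster of a gene. Control mice were littermates carrying 1 or 2 floxed *Hes1* alleles, and *Hes1*eKO mice were *Hes1* fx/fx;K14-Cre. Both floxed and Cre lines were kept on or crossed towards a C57bl/6 background, the floxed line coming from ICR stock. The labels place all mice at P70, and the study's text gives a slightly later day in telogen after depilation. There were 2 arrays per genotype, and each sample pooled 2 mice. The K14 promoter drives Cre in basal epithelial cells and their progeny, so that cells of other lineages keep an unrecombined *Hes1* gene.

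Hes and Hey proteins are basic helix-loop-helix repressors. When a Notch receptor is cleaved after ligand binding, its intracellular domain joins the DNA-binding protein Rbpj and Mastermind in the nucleus and switches on *Hes1*, *Hes5*, *Hey1*, *Hey2* and *Heyl* in many tissues. Hes proteins end in a short motif that recruits Groucho/TLE corepressors, and Hes1 can bind its own promoter and repress it. *Hes6* encodes a relative known to oppose Hes1, *Hes7* belongs to the oscillator of the vertebrate somites, and *Hes3* is best known from neural progenitors. *Hey1*, *Hey2* and *Heyl* are well known from the endothelium, the heart and vascular smooth muscle.

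Rbpj recognises a core of the letters TGGGAA, and the sequences around it are shown because Notch acts on its target genes through such elements. A promoter window (250 bases before to 50 after a gene start, RefSeq, GRCm38.p6) was at hand for *Hes5*, *Hes6*, *Hes7* and *Hey2*, with 5 windows in all. The core, searched on both strands, occurred in the windows of *Hes5*, *Hes7* and *Hey2* and in neither window of *Hes6*. Each line below gives 30 bases 5′ to 3′ on the strand of the gene, with the core or its reverse complement (TTCCCA) in capitals.
*Hes5*, chr4:154960685-154960714, plus strand: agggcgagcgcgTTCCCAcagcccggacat
*Hes5*, chr4:154960829-154960858, plus strand: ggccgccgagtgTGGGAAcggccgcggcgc
*Hes7*, chr11:69120261-69120290, plus strand: tcctcccctcacTTCCCAcatttggggcta
*Hey2*, chr10:30842973-30843002, minus strand: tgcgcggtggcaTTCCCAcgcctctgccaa
The matches of *Hes5* began 226 and 82 bases upstream of the start and lay on opposite strands. The match of *Hes7* began 180 and that of *Hey2* 207 bases upstream, and a second match of *Hey2* crossed the start. The core was found in 25.6% of the 32851 windows of all genes, and 3.79% of windows held 2 or more matches. The N box (CACNAG), a site that Hes proteins bind, also searched on both strands, occurred in 1 of the 2 *Hes6* windows and in that of *Hes7*, and in 42.5% of all windows. The class C site (CACGCG, both strands), also bound by Hes proteins, occurred only in the *Hes7* window among these 5, and in 9.27% of all windows. These matches describe the letters of the windows and are not measured binding sites.

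Expression was measured on Affymetrix Mouse Gene 2.0 ST arrays, and each value is log2 signal after the RMA normalization of the authors. The array medians lay between 4.36 and 4.39. Genotypes were compared by limma over all clusters, and a cluster passed the study threshold with a difference of more than 1.5-fold, up or down, and an unadjusted p under 0.05. At this threshold 3.20% of all clusters passed, 1.65% higher and 1.54% lower in *Hes1*eKO HFSCs, and none had an adjusted p under 0.05 (lowest adjusted p = 0.829), against 3.89% with an unadjusted p under 0.05. The methods' t-test, which the study names for comparing 2 groups in general and not for the arrays, likewise gave 0 clusters with an adjusted p under 0.05. With 2 arrays against 2, no exact two-sided permutation p can go below 0.333. The sorted cells carried the markers of the bulge, with *Krt15* between 11.23 and 11.63 and *Cd34* between 9.85 and 11.24. *Xist*, transcribed from the inactive X chromosome, had 8.80 in control and 8.95 in *Hes1*eKO HFSCs of replicate number 1, and 2.93 and 3.17 in those of number 2, while the dermal fibroblast gene *Dcn* had 4.83 and 3.88 on number 1 and 10.42 and 9.95 on number 2. The Y-linked gene *Eif2s3y* had 6.36 in control and 6.09 in *Hes1*eKO HFSCs of number 1, and 7.32 and 7.15 in those of number 2. *Uty*, also Y-linked, had 5.60 and 5.25 on number 1 and 6.45 and 6.57 on number 2. The sex of the mice in each pool was not tested. The arrays of the same number thus resembled each other in these genes, and differences within each number are given beside the comparison of genotypes.

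*Hes1*, the gene floxed in these mice and deleted where K14-Cre is active, was lower on average in *Hes1*eKO HFSCs, but the genotypes overlapped. Its RMA values (log2) were 5.34 and 5.04 on control arrays 1 and 2, and 5.05 and 4.37 on *Hes1*eKO arrays 1 and 2. The *Hes1*eKO array of number 1 thus lay just above the control array of number 2, and only the *Hes1*eKO array of number 2 stood clearly below the rest. The fold change was 0.718 (95% interval 0.408 to 1.26), or −0.48 on the log2 scale (standard error 0.30, adjusted p = 0.990 in limma), and it did not pass the study threshold. Within number 1 the difference was −0.28 and within number 2 it was −0.67. The interval holds both a fall of more than 1.5-fold and no difference. On the array itself *Hes1* was of middling signal, between the 49.9th and the 64.6th percentile of all clusters, and its lowest position was on *Hes1*eKO array 2. No source used here says whether the probes of *Hes1* fall inside the floxed exons, so that the value is no direct check of the deletion. By qRT-PCR of back skin epithelium, a different sample from these sorted HFSCs, the study reported significantly less *Hes1* and unaffected *Hes5* in *Hes1*eKO mice. By in situ hybridization and immunostaining of back skin at earlier ages, the study found *Hes1* missing from the follicle epithelium of *Hes1*eKO mice. Signal in the dermal papilla remained.
The estimate for *Hes1* stayed negative with each array left out but moved by more than 1.5 times without either *Hes1*eKO array. It was −0.82 without *Hes1*eKO replicate 1, −0.63 without control replicate 2, −0.33 without control replicate 1 and −0.14 without *Hes1*eKO replicate 2. None of these fits took *Hes1* past the threshold.
Genes listed as markers of cells in which K14-Cre does not act were measured on the same arrays. Whether their signal comes only from such cells was not tested. The 9 dermal papilla markers, all measured, summed to 41.1 and 44.1 (log2) in control and to 38.9 and 41.7 in *Hes1*eKO HFSCs, and single markers ran from 2.23 (*Sox2*) to 8.40 (*Wif1*). The 6 measured of 9 T cell markers summed to 31.8 and 25.0 in control and to 20.1 and 23.2 in *Hes1*eKO HFSCs. Of these 1, *Cd7*, fell past the study threshold (log2 fold change −2.66, adjusted p = 0.990 in limma), beside 1.68% of clusters with 1 gene symbol. Both sums were lower in *Hes1*eKO HFSCs within both numbers, as *Hes1* was. The sums of the dermal fibroblast, endothelial, mural, and Langerhans cell and macrophage markers, given below, were not lower within both numbers. The dermal papilla markers did not fall as a set, with 4 positive and 5 negative log2 fold changes and a median of −0.08. The lowest among them were those of *Hhip* (−1.57) and *Wif1* (−0.83). The part of such cells in the *Hes1* value was not tested. In bulk samples fewer cells of a type and less RNA per cell cannot be told apart.

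**Figure D1:**
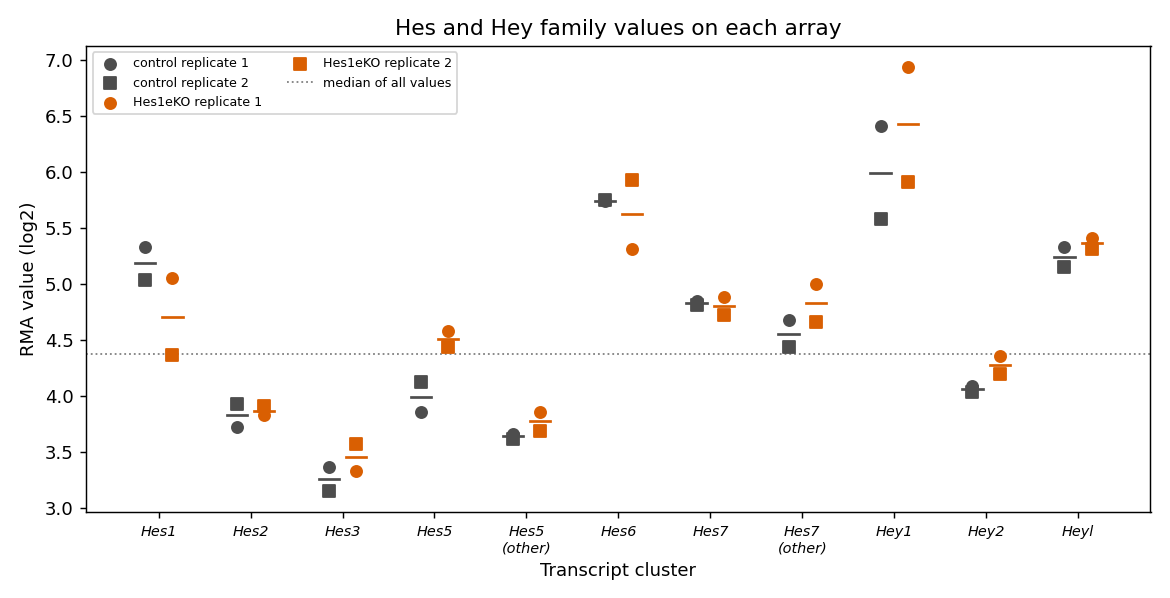
RMA values (log2, y axis) of the 11 Hes and Hey clusters (x axis) on each of the 4 arrays. Grey marks control and orange *Hes1*eKO, circles number 1 and squares number 2, short bars are group means and the dotted line is the median of all values (4.38). "Other" is the dimmer cluster of a gene. *Hes5* and *Hey2* are the genes whose genotypes do not overlap, and *Hey1* splits by replicate number.

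*Hes5*, the other classical Notch effector of the Hes genes, was the member with the largest positive difference. Its main cluster had 3.86 and 4.12 (log2) on control arrays 1 and 2, and 4.58 and 4.44 on *Hes1*eKO arrays 1 and 2. Both *Hes1*eKO arrays lay above both control arrays, and the change was 0.72 within number 1 and 0.32 within number 2. The fold change of 1.43 (95% interval 1.00 to 2.06) stayed below 1.5 and did not pass the study threshold (log2 fold change 0.52, standard error 0.19, adjusted p = 0.990 in limma). The values span the 41.0th to the 53.1st percentile of their arrays, close to the median signal of all clusters. With each array left out the estimate ranged from 0.39 to 0.65.
The other *Hes5* cluster was dimmer and differed less. It had 3.66 and 3.62 (log2) in control and 3.86 and 3.69 in *Hes1*eKO HFSCs, again without overlap, and the log2 fold change was 0.13 (standard error 0.17). All of its values lay below the median of all values, between the 35.9th and the 40.3rd percentile. The clusters of the gene thus had the same sign and differed in size.

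The Hey genes had positive differences throughout, and none passed the threshold. *Hey1* had 6.41 and 5.58 (log2) on control arrays 1 and 2 and 6.94 and 5.92 on *Hes1*eKO arrays 1 and 2. Its values separated by replicate number rather than by genotype, number 2 being lower than number 1 by 0.83 in control and by 1.02 in *Hes1*eKO HFSCs, while the genotypes differed by 0.53 within number 1 and by 0.34 within number 2. The comparison that does not pair the arrays gave a log2 fold change of 0.43 with the widest error of the family (standard error 0.48, 95% interval −0.85 to 1.72). Its sign turned without *Hes1*eKO replicate 1 (−0.079), and it was 0.02 without control replicate 2, 0.85 without control replicate 1 and 0.94 without *Hes1*eKO replicate 2. *Hey1* lay between the 68.0th and the 83.8th percentile of its arrays.
Other genes also separated by replicate number. The 8 measured of 9 markers of Langerhans cells and macrophages summed to 51.7 and 40.7 (log2) in control and to 44.5 and 40.7 in *Hes1*eKO HFSCs, higher on number 1 as *Hey1* was. The 7 dermal fibroblast markers, all measured, summed to 31.2 and 47.0 in control and to 31.7 and 42.1 in *Hes1*eKO HFSCs, and so ran the other way. Their part in the *Hey1* values was not tested.
*Hey2* had 4.09 and 4.04 in control and 4.36 and 4.20 in *Hes1*eKO HFSCs. The genotypes did not overlap, but the difference was small (log2 fold change 0.21, standard error 0.17) and the signal lay below the median of all values on each array. *Heyl* had 5.33 and 5.15 in control and 5.42 and 5.32 in *Hes1*eKO HFSCs. The control array of number 1 lay just above the *Hes1*eKO array of number 2, and the log2 fold change was 0.12 (standard error 0.18). It was 0.031 without control replicate 2 and 0.21 without control replicate 1.
Since Hey genes are well known from vessels, endothelial and mural markers were set beside them. The 12 endothelial markers, all measured, summed to 51.6 and 54.0 (log2) in control and to 57.5 and 53.9 in *Hes1*eKO HFSCs. Their log2 fold changes were positive in 8 and negative in 4. Of the 12, 1, the tight junction gene *Cldn5*, rose past the study threshold (log2 fold change 0.71, adjusted p = 0.990 in limma), beside 1.68% of clusters with 1 gene symbol. Its values, from 3.31 to 4.26, lay below the median of all values on each array. The sum was higher in *Hes1*eKO HFSCs within number 1 and nearly the same within number 2. The 9 mural cell markers, all measured, summed to 48.2 and 49.0 in control and to 49.4 and 48.3 in *Hes1*eKO HFSCs, and single markers ran from 3.26 (*Rgs5*) to 9.42 (*Cspg4*). RMA values have no true zero, so that no marker can be called absent, and the part of these cells in the Hey values was not tested.

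The main clusters of *Hes6*, *Hes7*, *Hes2* and *Hes3* had differences of opposite sign in the 2 replicate numbers. *Hes6* had nearly equal control values of 5.74 and 5.75 (log2), and the *Hes1*eKO values of 5.31 and 5.94 lay on either side of them. Its log2 fold change of −0.12 (standard error 0.27) turned to 0.19 without *Hes1*eKO replicate 1 and was −0.43 without *Hes1*eKO replicate 2. The main cluster of *Hes7* was the steadiest of the family, with 4.85 and 4.82 in control and 4.89 and 4.73 in *Hes1*eKO HFSCs, and a log2 fold change of −0.03 (standard error 0.17). Its other cluster had 4.68 and 4.44 in control and 5.002 and 4.66 in *Hes1*eKO HFSCs, and the log2 fold change was 0.27 (standard error 0.22), so that the clusters of *Hes7* differed in sign. That difference in sign was lost without *Hes1*eKO replicate 2, where the main cluster was at 0.049 and the other at 0.44, and the other cluster was at 0.10 without *Hes1*eKO replicate 1. *Hes2*, a little studied relative, had 3.73 and 3.93 in control and 3.83 and 3.91 in *Hes1*eKO HFSCs, and its difference was 0.04 (standard error 0.18). The *Hes2* and main *Hes7* intervals, −0.44 to 0.53 and −0.50 to 0.43, lay within a 1.5-fold change in either direction. *Hes3* had 3.37 and 3.15 in control and 3.34 and 3.57 in *Hes1*eKO HFSCs, and the log2 fold change was 0.19 (standard error 0.20), with a range of 0.077 to 0.31 when 1 array was left out. *Hes2* and *Hes3* lay below the median of all values on all arrays. RMA values of different genes are not set against each other as amounts, because their probes differ.

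**Figure D2:**
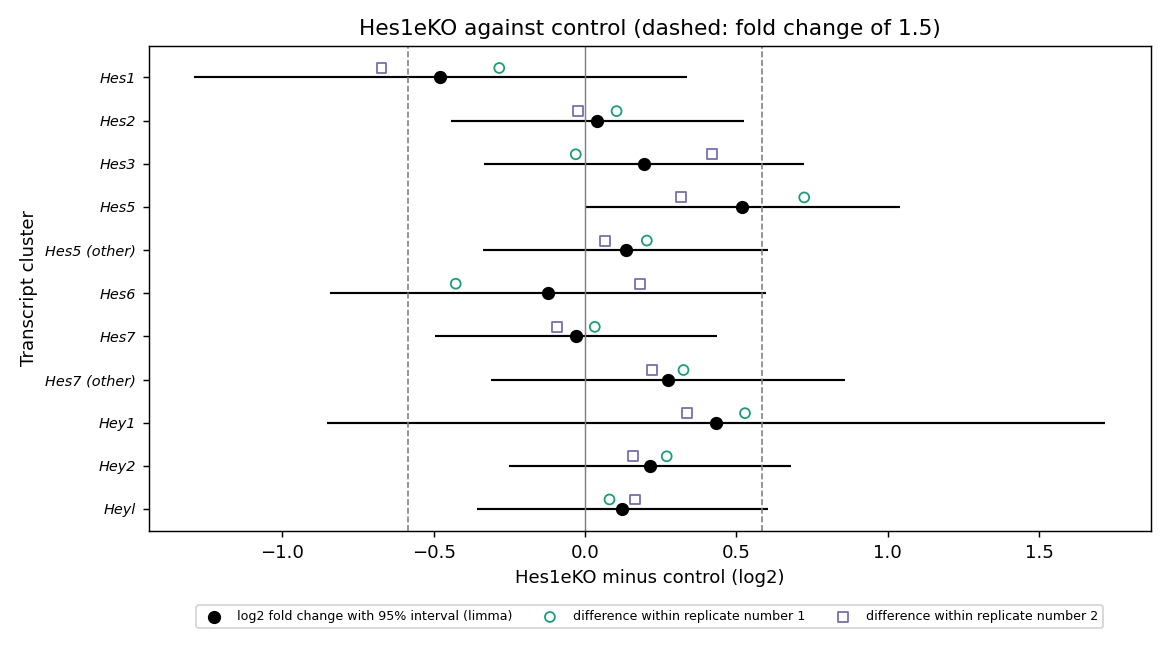
Log2 fold change of each Hes and Hey cluster, *Hes1*eKO minus control (x axis, log2), as black points with 95% intervals from limma, by cluster (y axis). Open circles and squares are the differences within replicate numbers 1 and 2, and dashed lines mark a fold change of 1.5. All intervals include 0, that of *Hes5* only just, and that of *Hey1* is the widest.

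Over the family, 0 of 9 genes and 0 of 11 clusters passed the study threshold, beside 3.20% of all clusters and 1.68% of clusters with 1 gene symbol. In the main limma comparison the lowest adjusted p of a member was 0.990, and no unadjusted p was under 0.05. Of the 9 genes 6 had a positive and 3 a negative log2 fold change, with a median of 0.12 beside −0.01 over all clusters. The median size of the difference without its sign was 0.19 in the family and 0.18 over all clusters. The genotypes did not overlap in 2 of 9 genes, *Hes5* and *Hey2*, both higher in *Hes1*eKO HFSCs, beside 32.0% of all clusters in either direction, 15.8% higher and 16.2% lower. *Hes5*, *Hey1*, *Hey2* and *Heyl* were higher within both replicate numbers, as were 25.1% of all clusters, and *Hes1* alone was lower within both, as were 25.5% of all clusters. The remaining 4 genes had opposite signs in the 2 numbers. These shares of the family rest on few genes and are a description.

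**Figure D3:**
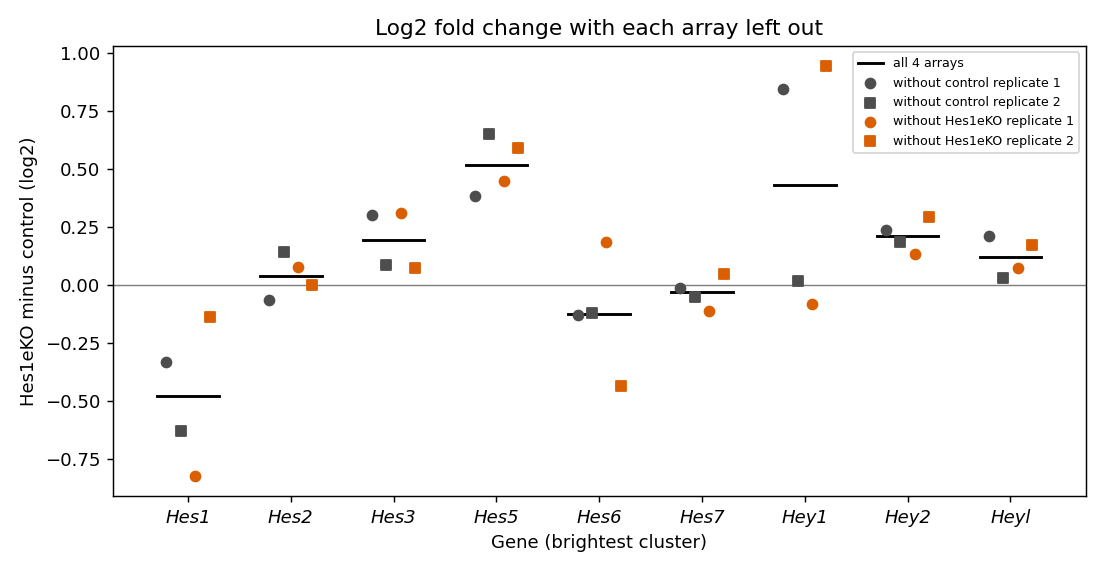
Log2 fold change, *Hes1*eKO minus control (y axis, log2), of the main cluster of each gene (x axis), with all 4 arrays (black bars) and with 1 array left out (grey: a control array, orange: a *Hes1*eKO array, circles: number 1, squares: number 2). *Hes1* stays below 0 and *Hes5* above 0 in each case, whereas *Hey1* runs from −0.079 to 0.94.

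The genes around the family in the Notch pathway were described from 8 lists, 60 of whose 64 genes were measured by a cluster of their own. None of the 60 passed the study threshold in the comparison without a block, beside 3.20% of all clusters and 1.68% of those with 1 gene symbol. In log2 fold change 35 were positive and 25 negative, with a median of 0.08. Among the 9 receptors and ligands, 7 had a positive difference, and the largest were those of the receptor gene *Notch1* (0.47, standard error 0.28) and the ligand gene *Jag1* (0.44, standard error 0.26). *Notch1* had 8.97 and 8.60 (log2) in control and 9.53 and 8.98 in *Hes1*eKO HFSCs, so that the genotypes were separated by only the smallest margin. The 11 measured genes of receptor cleavage and glycosylation were split, with 5 positive and 6 negative. The largest differences among them were those of *Psenen* (−0.47, standard error 0.33) and *Aph1b* (−0.36, standard error 0.22), which encode subunits of γ-secretase.
In the nuclear complex, *Maml3*, a Mastermind coactivator gene, differed by 0.49 (standard error 0.20). *Rbpj*, whose protein binds the core shown above, had −0.30 (standard error 0.19), with values of 6.03 and 6.04 (log2) in control and 5.58 and 5.88 in *Hes1*eKO HFSCs that did not overlap. Among the 11 measured inhibitors and corepressors of Notch, the largest differences were −0.34 for the ubiquitin ligase gene *Dtx3* and 0.24 for *Nrarp*, itself a Notch target gene.
The Groucho/TLE family genes, which include those of partners of Hes proteins, had the highest median of the 8 lists (0.39), and 5 of 6 were positive. *Tle2* had 6.83 and 6.92 (log2) in control and 7.58 and 7.23 in *Hes1*eKO HFSCs, a difference of 0.53 (standard error 0.20). *Tle4* went the other way, with 7.92 and 8.67 in control and 7.43 and 7.88 in *Hes1*eKO HFSCs (−0.64, standard error 0.34). No TLE gene passed in the comparison without a block, but *Tle4* passed without control replicate 1 (−1.01).
Of the related helix-loop-helix genes, *Id3*, an inhibitor gene of the Id family, had 8.19 and 8.14 (log2) in control and 6.70 and 8.23 in *Hes1*eKO HFSCs. Its difference of −0.70 (standard error 0.55) thus rested on *Hes1*eKO replicate 1, and it passed the threshold without *Hes1*eKO replicate 2 (−1.47), as did *Psenen* (−0.87) and *Tle3* (0.86). *Bhlhe40*, another repressor gene of the same structural class as Hes, had 0.33 (standard error 0.19). Of the proneural activator genes, which Hes proteins repress in the nervous system, 6 of 7 measured had a negative difference, the largest that of *Neurog2* (−0.30) and *Neurod1* (−0.20). The CDK inhibitor genes, described as Hes1 targets in other organs, had −0.43 for *Cdkn1b* (standard error 0.18), 0.24 for *Cdkn1a* and −0.06 for *Cdkn1c*. None passed the study threshold, and the study's text reports these genes as unaffected by *Hes1* deletion on its microarray.

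**Figure D4:**
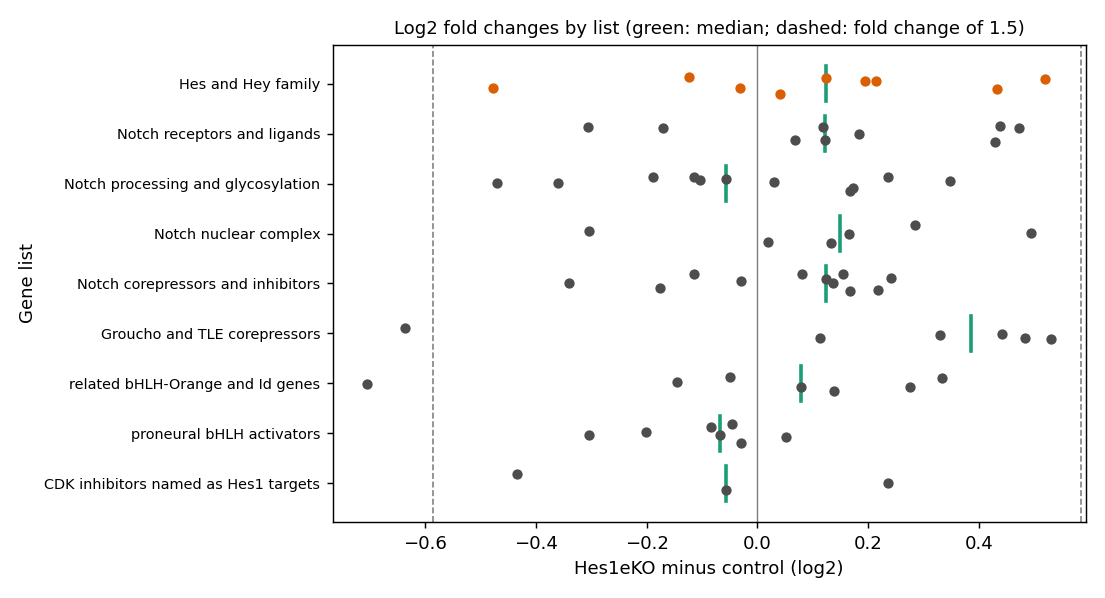
Log2 fold changes, *Hes1*eKO minus control (x axis, log2), of the main cluster of each gene in the Hes and Hey family (orange) and in 8 lists of related genes (grey, y axis). Green bars are medians and dashed lines mark a fold change of 1.5. The family spans −0.48 to 0.52, and no point that lies past a dashed line passed the test.

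The genes whose values ran most like those of *Hes1* over the 4 arrays were *Chordc1*, *Ddx10*, *Zfp280b* and *Ccnc* (Pearson r from 0.9969 to 0.9996). Those most like *Hey1* were *Dot1l*, *Atn1*, *Prdm4* and *Chml* (r from 0.9995 to 0.9999). They were picked from 6520 clusters of named genes outside the family, and r above 0.95 was reached by 82 clusters for *Hes1* and by 268 for *Hey1*. The 4 points of each r share 2 genotypes and 2 replicate numbers, so that these likenesses only describe the arrays.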

How the data were processed

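HFSCs were profiled on 4 arrays, 2 per genotype. The value table deposited by the authors holds log2 RMA signal (Expression Console 1.4.1 in the submitters' processing notes), already background-corrected, normalized and summarized per cluster. The values were used as deposited, for all 41345 clusters. The annotation used gives 1 gene symbol for 23521 clusters, several for 1820 and none for 16004. No build is named for the values.

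*Hes1*eKO was compared with control by lmFit and eBayes in R 4.3.3 with limma 3.58.1, with no replicate term, and p values were adjusted by Benjamini-Hochberg over all clusters. The procedure was checked on simulated data. Figures used matplotlib 3.10.9 under Python 3.11.15. For the arrays the methods name Partek with the same threshold but no model. The study speaks of pairs of samples, but no source used here says that the number marks a pair or a litter, so the number was a block only in an alternative. Each sample pools separate mice, and the number of arrays limits the precision.

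Members and lists were chosen with earlier results of these data known. All members are named, and of each list the genes past the threshold or else those with the 2 largest differences. Likeness to *Hes1* and to the member of the highest mean was Pearson r over clusters at or above the median with a range of at least 0.5. *Dcn*, *Xist*, *Eif2s3y*, *Uty*, *Tle3*, *Cdkn1c* and the marker genes given with values lie outside this rule and were named after their values were seen. *Tle5* was matched through its older symbol, and 4 genes of the lists are not reported here.

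Each array was left out in turn. The other alternatives were a plain t statistic as in the methods' t-test, the number as a block, a mean-dependent prior (limma-trend), arrays scaled by quantiles or by medians, a filter keeping 21360 clusters above 4.38 on at least 2 arrays, clusters with 1 gene symbol, omission of 806 duplicate clusters, and the mean of clusters per gene.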

Additional observations from a re-analysis of the deposited data

How the results depend on the processing

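No Hes or Hey gene passed the study threshold under any alternative tried, though a filter on dim clusters left *Hes2*, *Hes3* and *Hey2* untested. The unadjusted limma p of *Hes5* was 0.0369 on clusters with 1 gene symbol. It was 0.0499 both with arrays scaled by quantiles and without duplicate clusters. In these fits its difference stayed below 1.5-fold (log2 fold change 0.50 to 0.52). In the other fits of all 4 arrays its p was above 0.05. The unadjusted limma p was 0.0501 in the main fit, 0.0505 with arrays scaled by medians and 0.0558 in limma-trend. It was 0.0611 with the filter on dim clusters, 0.0811 with the block and 0.131 with the mean of clusters (log2 fold change 0.33). The plain t-test gave 0.0748. *Hes1*, *Hes3*, *Hes5*, *Hey2* and *Heyl* kept their sign in every alternative that tested them. Signs turned for *Hes2* without control replicate 1 (log2 fold change of −0.063), *Hes6* without *Hes1*eKO replicate 1 (0.19), *Hes7* without *Hes1*eKO replicate 2 (0.049) and *Hey1* without *Hes1*eKO replicate 1 (−0.079). With 1 array left out the log2 fold changes ranged from −0.063 to 0.14 for *Hes2*, −0.43 to 0.19 for *Hes6*, −0.11 to 0.049 for *Hes7* and −0.079 to 0.94 for *Hey1*, and *Hes7* turned to 0.12 with the mean of its clusters. The cause was not tested.

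With the replicate number as a block, the standard errors were 0.21 for *Hes1*, 0.21 for *Hes5* and 0.19 for *Hey1*, 1 gene of the Notch lists passed in place of 0 (*Tle4*, −0.64), and 949 clusters were higher and 885 lower. Deviations of same-numbered arrays correlated at 0.143, which with 2 numbers does not establish pairing.

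With all arrays, 684 clusters were higher and 637 lower. The methods' t-test gave 245 and 224, the filter on dim clusters 372 and 347, and clusters with 1 gene symbol 234 and 281. The last 2 tested fewer clusters and were refitted on them, so their spread was estimated anew. In the fit of all clusters 186 and 210 of the clusters with 1 gene symbol passed. With 1 array left out the counts ranged from 639 to 1182 higher (1182 without control replicate 2, 1096 without *Hes1*eKO replicate 2) and from 636 to 1356 lower (1356 without control replicate 2, 986 without control replicate 1), and 0 to 3 genes of the Notch lists passed. Low signal limits *Hes2*, *Hes3* and *Hey2*, which lay below the median of all values on each array. It also limits *Hes5*, whose main cluster lay above that median only on the *Hes1*eKO arrays. The filter on dim clusters thus kept *Hes5* through the group where it was high, and its result there is no separate support.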
